A study of Mus musculus with 12 samples.

Results

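The genes described here are 34 genes of the hypoxia response and of glycolysis, chosen by symbol: glycolytic enzymes, glucose transporters, the oxygen-regulated factor Hif1a and genes known as its targets. Every probe of the array whose platform annotation gives one of these symbols was taken. Probes were found for 31 of the 34 genes, and Hk2, Gpi1 and Eno1 are not analysed here. The 31 genes had 62 of the 45281 probes on the array. Of these, 43 probes for 25 genes were detected above the negative control beads on at least 3 of the 12 arrays and were tested, beside 19595 probes tested in all. Hk1, Bnip3, Adm, Car9, Higd1a and Mxi1 were detected on 0 arrays and have no measured level.

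Each array held RNA of 1 mouse embryo, taken whole at 8.5 days post coitum, and by the labels the 3 samples in a group were separate embryos. The 4 groups were wild-type and Cited2 -/- embryos of mothers fed a control diet, and wild-type and Cited2 -/- embryos of mothers fed a high-fat diet. All mothers were Cited2 +/- C57BL6/J females that received their diet from 6 weeks of age, were mated after 8 weeks to Cited2 +/- males and stayed on the diet through pregnancy. The yolk sac and the allantois were dissected away and somites were counted before freezing. The labels give no litter, embryo sex or array slide. The comparisons asked whether embryonic loss of Cited2, the mother's high-fat diet or their combination changed transcript levels.

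HIF-1, a dimer of HIF-1α (Hif1a) and Arnt, switches on genes of glucose uptake, glycolysis, lactate export and blood vessel growth when oxygen is low. In normal oxygen the prolyl hydroxylases Egln1 and Egln3 mark HIF-1α for destruction, and both enzymes are themselves HIF targets. CITED2 competes with HIF-1α for the coactivators CBP and p300 and is known as a brake on HIF-driven transcription. Mouse embryos before a working circulation live in low oxygen and draw much of their energy from glycolysis.

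Values are log2 signals after background correction and quantile normalization, and a difference of 1 is a doubling. A gene is given at its tested probe with the highest mean signal unless another probe is named. Between 36.6% and 41.6% of probes were detected per array. The probe for Cited2 read 1615.5 to 4210.3 units of raw signal in the 6 wild-type embryos. In the 6 knockouts it read −3.5 to 119.7 and was detected in 1, high-fat knockout 3. The arrays also fell into 2 sets of 6, A and B, by the spread between beads of a probe: its median coefficient of variation was 18.0% to 20.5% on set A arrays, against 21.4% to 23.8% on set B arrays. The medians took probes with a signal over 500. The cut was made at the largest gap, 0.967 percentage points, and the next was 0.88. With cutoffs of 1000 and 2000 the largest gap left 4 arrays below it. The sets did not overlap at any cutoff tried, from 100 to 5000. Set A held embryo 1 of each group and embryo 2 of both high-fat groups, and the split was noticed in the data rather than stated by the labels. The genotypes were therefore balanced over the sets within each diet, whereas the control diet had 2 embryos of each genotype in set B and the high-fat diet 1. Of the marker lists, somite genes (4 of 5 tested) summed to 1634 to 2699 units in wild types and 1042 to 1690 in knockouts, heart genes (4 of 5 tested) to 8058 to 17722 and 5028 to 14185, and yolk sac endoderm genes (7 of 10 tested) to 1574 to 13518 and 3384 to 32794. Afp, a defining yolk sac gene, was detected on 0 arrays, as were Tpbpa (trophoblast), Pax1 (somite) and Pax6 (neural tube). Other genes of these lists were detected, among them Apoa1 and Apom (yolk sac), Hand1 (trophoblast), Tcf15 (somite) and Sox2 (neural tube) on 12 arrays. Prl2c2 (trophoblast) was detected on 10. Of the allantois list, Tbx4 and Hoxa13 were detected on 12 arrays and Pitx1 on 11. Meox1, a somite factor, was the 1 marker called by genotype (−0.69, adjusted p = 0.0211). The part of these cell types in the results below was not tested. In whole embryos fewer cells of a type and less RNA per cell cannot be told apart.

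The promoters of 5 of the genes are shown because the results below turn on them: Egln1 had the lowest p-value of all members in the genotype comparison, Egln3 and Ankrd37 varied most between embryos, Pgk1 had the largest diet difference, and Tpi1 separated the high-fat knockouts from the other embryos. They were picked after these values were known. Each is the 250 bases before the RefSeq start of the gene in build GRCm38.p6, read 5′ to 3′ on the gene's strand, with capitals marking ACGTG or GCGTG on either strand (CACGT or CACGC when read on the printed strand), the core letters that HIF-1 is known to bind.
Egln1 (chr8:124949255-124949504, minus strand): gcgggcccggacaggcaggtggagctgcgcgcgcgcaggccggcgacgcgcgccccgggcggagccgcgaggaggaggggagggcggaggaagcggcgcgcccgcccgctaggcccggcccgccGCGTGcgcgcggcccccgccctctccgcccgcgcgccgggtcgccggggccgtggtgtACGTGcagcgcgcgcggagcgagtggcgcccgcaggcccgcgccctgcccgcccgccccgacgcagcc
Egln3 (chr12:54203875-54204124, minus strand): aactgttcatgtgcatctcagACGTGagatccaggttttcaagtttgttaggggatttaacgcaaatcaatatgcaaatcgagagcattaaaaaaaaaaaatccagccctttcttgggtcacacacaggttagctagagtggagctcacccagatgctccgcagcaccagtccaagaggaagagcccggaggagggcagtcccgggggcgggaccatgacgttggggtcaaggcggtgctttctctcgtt
Ankrd37 (chr8:45999851-46000100, minus strand): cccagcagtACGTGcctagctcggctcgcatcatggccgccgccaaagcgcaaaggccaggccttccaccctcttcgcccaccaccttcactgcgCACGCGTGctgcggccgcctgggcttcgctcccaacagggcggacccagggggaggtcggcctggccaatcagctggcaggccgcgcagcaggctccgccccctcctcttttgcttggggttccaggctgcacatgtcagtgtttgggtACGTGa
Pgk1 (chrX:106186850-106187099, plus strand): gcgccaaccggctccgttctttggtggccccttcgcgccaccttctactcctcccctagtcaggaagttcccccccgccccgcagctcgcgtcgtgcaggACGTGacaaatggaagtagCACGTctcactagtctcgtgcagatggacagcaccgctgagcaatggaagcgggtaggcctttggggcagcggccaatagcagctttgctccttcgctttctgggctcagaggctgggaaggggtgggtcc
Tpi1 (chr6:124814159-124814408, minus strand): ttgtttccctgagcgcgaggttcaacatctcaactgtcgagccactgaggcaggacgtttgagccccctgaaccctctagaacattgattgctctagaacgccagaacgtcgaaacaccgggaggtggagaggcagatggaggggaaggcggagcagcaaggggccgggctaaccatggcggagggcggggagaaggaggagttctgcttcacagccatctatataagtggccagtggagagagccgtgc
The window of Ankrd37 held 4 matches, those of Egln1 and Pgk1 held 2 each, that of Egln3 held 1 and that of Tpi1 held 0, with overlapping matches counted separately. Of the 34 members, 32 had at least 1 window in the RefSeq table, and 30 of those had a match in at least 1 window. Over windows, 37 of the members' 47 held a match (78.7%), beside 38.6% of all 32851 windows and 54.7% of the 11121 windows of genes with a tested probe. The members were chosen in part as known HIF targets, so their share of windows with a match is not an independent result. A match describes the letters only and is not evidence of binding.

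No member passed the test in any of the 7 comparisons (limma, Benjamini-Hochberg adjusted p under 0.05 over all tested probes). In the knockout against wild-type comparison averaged over diets, 0 of 25 members were called, beside 0.0836% of all 10764 genes, and the lowest adjusted p of a member was 0.597, for Egln1. In the high-fat against control diet comparison averaged over genotypes, 0 of 25 were called, beside 0% of all genes, and the lowest adjusted p was 0.401, for Pdk1. Within single diets or genotypes the counts were also 0, beside 0.0465% for genotype on the control diet, 0.00929% for genotype on the high-fat diet, and 0% for diet in wild types, for diet in knockouts and for the interaction. At an unadjusted p under 0.05, 4 members differed by genotype (16%), beside 3.61% of all genes. Ddit4 was the 1 higher in knockouts (beside 1.57% of all genes), and Egln1, Pfkp and Pdk1 were the 3 lower (beside 2.04%). By diet 3 members (Pdk1, Pgk1 and Kdm3a) passed the unadjusted threshold (12%), all lower on the high-fat diet, beside 12.5% of all genes in either direction, 4.04% lower and 8.47% higher. The unadjusted counts were 1 for genotype on the control diet (beside 1.46%), 4 for genotype on the high-fat diet (beside 3.68%), 2 for diet in wild types (beside 3.75%), 3 for diet in knockouts (beside 6.76%) and 0 for the interaction (beside 0.985%). With arrays weighted by quality, limma called 9 members by diet, all lower on the high-fat diet, together with 6128 of all 19595 probes. With weights estimated anew beside array set as a block, an estimate that limma warned had not converged, it called 0 members.

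Most differences by genotype lay below 0. Knockout minus wild type lay below 0 for 21 of the 25 tested members, beside 49.5% of all genes, with a median of −0.11 beside 0.00 over all genes. The single differences ran from −0.51 to 0.45, with standard errors between 0.08 and 0.39. High-fat minus control lay below 0 for 16 of 25 members, beside 40.2% of all genes, with a median of −0.06 beside 0.05, but for 11 of 25 with a median of 0.04, beside 0.09 over all probes, when arrays were scaled to equal medians. On the control diet alone the genotype median was −0.03 with 14 of 25 members below 0, beside 46.7% of all genes, and on the high-fat diet it was −0.19 with 20 of 25 below 0, beside 50.6%. The diet median was −0.02 in wild types with 14 of 25 below 0, beside 39.6%. With array set as a block the diet median in wild types was 0.03 (10 of 25 below 0), beside 4663 of all 10764 genes below 0. Within set B it was 0.12 (8 of 25), beside 5009 of 10764. In knockouts, without the block, the diet median was −0.11 with 20 of 25 below 0, beside 42.5%. With array set as a block, 20 of 25 members lay below 0 by diet, beside 45.9%, and 21 of 25 by genotype, beside 49.5%, and 0 were called in either, beside 0% and 0.149%. The block could not change the genotype differences, only their errors, because the genotypes were balanced over the sets within each diet. The genotype median was −0.04 within array set A (16 of 25 below 0), beside −0.02 over all genes (5917 of 10764 below 0). Within set B the genotype median was −0.23 (21 of 25), beside 0.02 over all genes (4985 of 10764). It was −0.03 without high-fat wild-type embryo 3, when 15 of 25 members lay below 0, and −0.13 without high-fat knockout 3, the embryo with a detected Cited2 signal. With Y-linked signal as a covariate it was −0.02, with 16 of 25 below 0. The members share embryos and arrays and are not independent of one another.

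**Figure D1:**
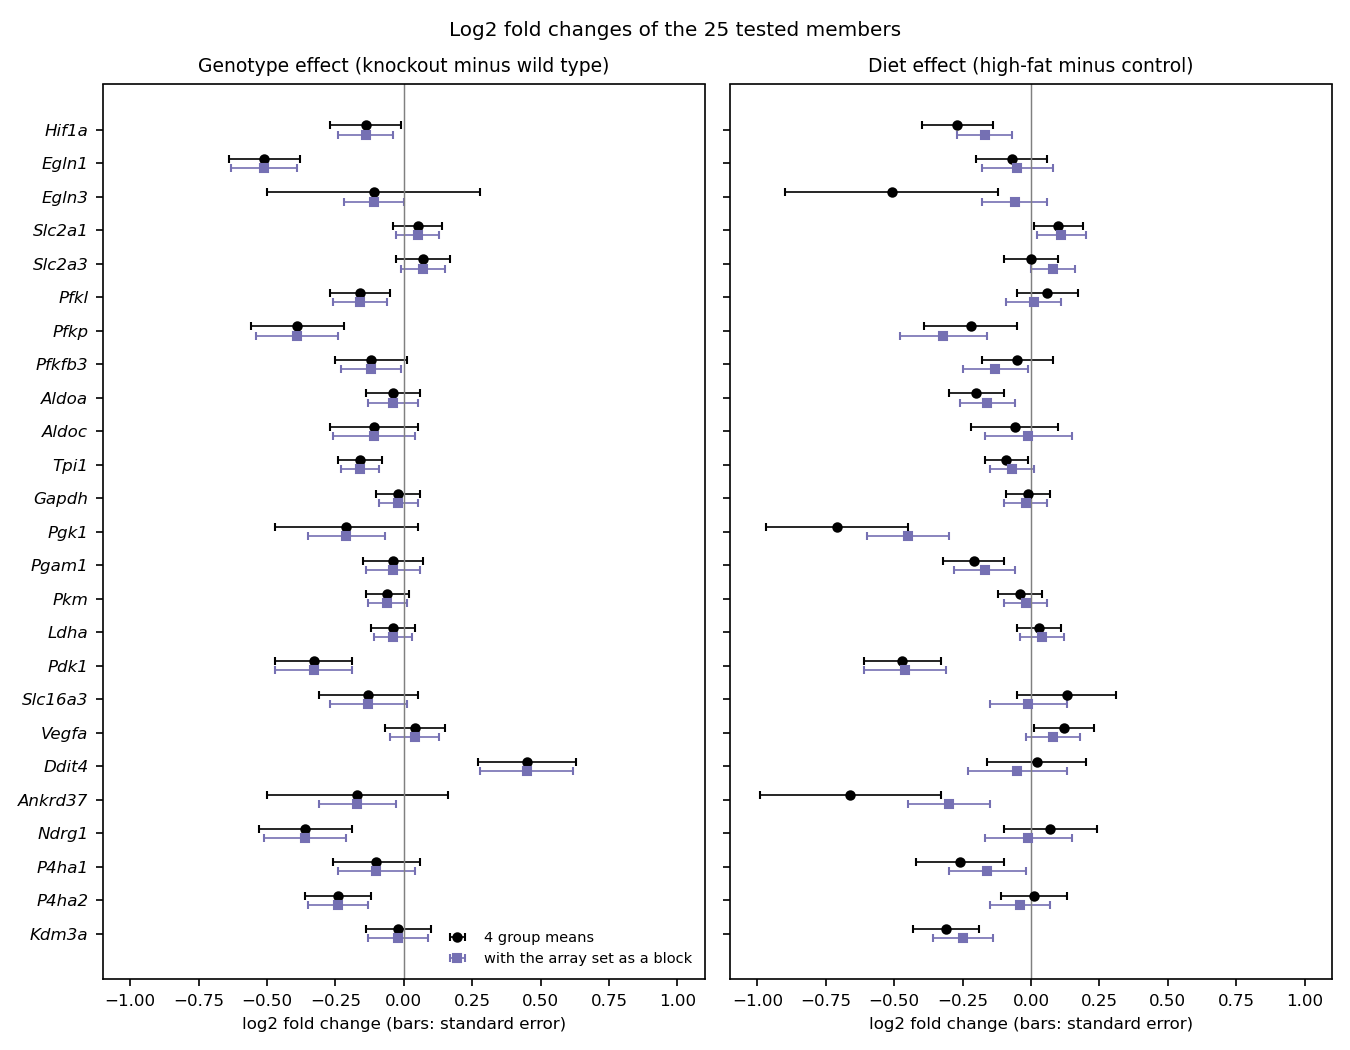
Log2 differences of the 25 tested members, knockout minus wild type at the left and high-fat minus control diet at the right, from the model with 4 group means and from the model with array set added as a block; points are estimates and bars are standard errors (12 embryos). Most genotype points lie left of 0 and cannot move with the block, as the genotypes are balanced over the sets within each diet. With the block, the diet points of Pgk1, Ankrd37 and Egln3 move toward 0.

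Among the regulators, Hif1a encodes the oxygen-regulated subunit of HIF-1. Hif1a read 6.99, 7.21 and 7.61 in control-diet wild-type embryos 1 to 3 and 6.65, 7.04 and 7.02 in the control-diet knockouts. In high-fat embryos Hif1a read 6.56, 6.74 and 7.03 in the wild types and 6.76, 6.92 and 6.88 in the knockouts. Control-diet wild-type embryo 3 was highest and high-fat wild-type embryo 1 lowest, and every pair of groups overlapped except the high-fat knockouts and the control-diet wild types. The genotype difference was −0.14 ± 0.13 (SE; adjusted p = 1) and the diet difference −0.27 ± 0.13 (adjusted p = 0.428), which was −0.17 ± 0.10 with array set as a block. By genotype, the diet difference was −0.50 ± 0.18 in wild types and −0.05 ± 0.18 in knockouts, and the interaction, 0.45 ± 0.26, was the highest of the members (adjusted p = 1).

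Egln1 encodes PHD2, the main prolyl hydroxylase that limits HIF-1α in normal oxygen. Egln1 read 5.93, 5.84 and 5.74 in control-diet wild-type embryos 1 to 3 and 5.18, 5.73 and 5.15 in the control-diet knockouts. In high-fat embryos Egln1 read 5.67, 5.73 and 5.99 in the wild types and 5.52, 5.14 and 5.11 in the knockouts. Each knockout group lay below the wild types of its own diet, on the control diet only just (5.73 against 5.74), while control-diet knockout 2 lay among the high-fat wild types. The probe was detected in 6 of 6 wild types and 3 of 6 knockouts. The genotype difference of −0.51 ± 0.13 was the lowest of all members (unadjusted p = 0.00183, adjusted p = 0.597), and it was −0.56 within array set A and −0.62 within set B. Both other tested Egln1 probes were also below 0, at −0.20 ± 0.15 and −0.39 ± 0.18. The diet difference of Egln1 was −0.07 ± 0.13.

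Egln3, encoding the hydroxylase PHD3, is strongly induced by HIF in many cells. Egln3 read 5.01, 6.34 and 6.65 in control-diet wild-type embryos 1 to 3 and 5.07, 6.54 and 6.59 in the control-diet knockouts. In high-fat embryos Egln3 read 5.21, 5.31 and 6.47 in the wild types and 4.69, 5.27 and 6.18 in the knockouts. The values followed the array sets: all 6 embryos of set A lay at or below 5.31 and all 6 of set B at or above 6.18, with detection on 1 and 6 arrays. Its diet difference was −0.51 ± 0.39 (adjusted p = 0.533) and became −0.06 ± 0.12 with array set as a block. The genotype difference was −0.11 ± 0.39, and −0.11 ± 0.11 with the block.

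Both tested glucose transporters had genotype differences just above 0. Slc2a1 encodes GLUT1, a widely used glucose transporter, and ranged over 0.37 across all 12 embryos. Slc2a1 read 14.14, 13.92 and 13.91 in control-diet wild-type embryos 1 to 3 and 14.07, 14.13 and 14.16 in the control-diet knockouts. In high-fat embryos Slc2a1 read 14.12, 14.22 and 14.20 in the wild types and 14.13, 14.01 and 14.27 in the knockouts. Control-diet wild-type embryos 2 and 3 were the lowest of the 12, and all groups overlapped. The genotype difference was 0.05 ± 0.09 (adjusted p = 1) and the diet difference 0.10 ± 0.09 (adjusted p = 0.567).

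Slc2a3 (GLUT3) is a transporter with high affinity for glucose. Slc2a3 read 13.28, 13.60 and 13.50 in control-diet wild-type embryos 1 to 3 and 13.39, 13.67 and 13.71 in the control-diet knockouts. In high-fat embryos Slc2a3 read 13.41, 13.60 and 13.54 in the wild types and 13.50, 13.40 and 13.71 in the knockouts. The groups overlapped, and control-diet knockout 3 and high-fat knockout 3 shared the highest value. Slc2a3 differed by 0.07 ± 0.10 between genotypes and by 0.00 ± 0.10 between diets.

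All 10 tested glycolysis genes had a genotype difference below 0, with a median of −0.12 and a range from −0.39 to −0.02, and none was called. By diet 9 of the 10 lay below 0 with a median of −0.07, and 5 of 10 when arrays were scaled to equal medians. Pkm (pyruvate kinase), Gapdh (glyceraldehyde-3-phosphate dehydrogenase) and Tpi1 (triosephosphate isomerase) had ranges of 0.21, 0.16 and 0.38 over the 12 embryos. For Gapdh the differences were −0.02 ± 0.08 by genotype and −0.01 ± 0.08 by diet, and for Pkm −0.06 ± 0.08 and −0.04 ± 0.08. Aldoa and Aldoc, the aldolases, were at −0.04 ± 0.10 and −0.11 ± 0.16 by genotype. Pfkl, the liver-type phosphofructokinase, was at −0.16 ± 0.11. Pfkfb3, which makes the phosphofructokinase activator fructose-2,6-bisphosphate, was detected on 4 arrays and was at −0.12 ± 0.13.

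Pfkp encodes the platelet-type phosphofructokinase, an enzyme of the committed step of glycolysis. Pfkp read 6.91, 6.57 and 6.64 in control-diet wild-type embryos 1 to 3 and 6.64, 6.72 and 5.83 in the control-diet knockouts. In high-fat embryos Pfkp read 6.43, 6.58 and 6.67 in the wild types and 6.24, 6.34 and 5.70 in the knockouts. Knockout 3 of each diet gave the lowest 2 values of the 12, and the 3 high-fat knockouts lay below the 3 high-fat wild types, whereas on the control diet the genotypes overlapped. The genotype difference was −0.39 ± 0.17 (unadjusted p = 0.0401, adjusted p = 1), with −0.24 within array set A and −0.65 within set B. The other tested Pfkp probe was at −0.16 ± 0.17.

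Tpi1 was singled out after its values were seen. Tpi1 read 14.23, 14.31 and 14.27 in control-diet wild-type embryos 1 to 3 and 14.22, 14.28 and 14.11 in the control-diet knockouts. In high-fat embryos Tpi1 read 14.31, 14.17 and 14.36 in the wild types and 13.98, 14.04 and 14.04 in the knockouts. The high-fat knockouts were the 3 lowest of the 12 embryos. Their difference from high-fat wild types was −0.26 ± 0.11 (unadjusted p = 0.0381, adjusted p = 1), and averaged over diets the genotype difference was −0.16 ± 0.08. Both other tested Tpi1 probes were also below 0 by genotype averaged over diets, at −0.19 ± 0.12 and −0.13 ± 0.17. On the high-fat diet they were at −0.08 ± 0.17 and −0.21 ± 0.24, and the genotypes overlapped at both.

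Pgk1, phosphoglycerate kinase, makes the first ATP of glycolysis. Pgk1 read 11.56, 12.12 and 12.82 in control-diet wild-type embryos 1 to 3 and 11.72, 12.23 and 12.02 in the control-diet knockouts. In high-fat embryos Pgk1 read 10.98, 11.17 and 12.32 in the wild types and 11.00, 11.09 and 11.64 in the knockouts. The lowest 4 embryos were the high-fat embryos of set A, and high-fat wild-type embryo 3, of set B, lay among the control-diet embryos. Its diet difference, −0.71 ± 0.26, was the lowest of the members (unadjusted p = 0.0192, adjusted p = 0.41). With array set as a block it was −0.45 ± 0.15 (adjusted p = 0.425), with −0.58 within set A and −0.32 within set B. By genotype it was −0.21 ± 0.26.

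Pgam1 encodes phosphoglycerate mutase, which acts after Pgk1. Pgam1 read 10.50, 10.60 and 10.76 in control-diet wild-type embryos 1 to 3 and 10.45, 10.57 and 10.23 in the control-diet knockouts. In high-fat embryos Pgam1 read 10.07, 10.09 and 10.59 in the wild types and 10.37, 10.39 and 10.33 in the knockouts. High-fat wild-type embryos 1 and 2 were the lowest of the 12, and the 3 high-fat knockouts lay between 10.33 and 10.39, below all 3 control-diet wild types. The diet difference was −0.37 ± 0.16 in wild types (unadjusted p = 0.0388, adjusted p = 0.83) and −0.06 ± 0.16 in knockouts, and the interaction was 0.32 ± 0.23 (adjusted p = 1).

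Of the genes that set the fate of pyruvate, Ldha (lactate dehydrogenase A) varied least, over 0.24 across 12 embryos, with differences of −0.04 ± 0.08 by genotype and 0.03 ± 0.08 by diet. Pdk1 encodes a kinase that shuts pyruvate dehydrogenase and so keeps pyruvate out of the mitochondrial cycle; it was singled out for its p-value by diet. Pdk1 read 8.76, 8.83 and 9.08 in control-diet wild-type embryos 1 to 3 and 8.98, 8.77 and 8.33 in the control-diet knockouts. In high-fat embryos Pdk1 read 8.36, 8.36 and 8.93 in the wild types and 8.13, 8.18 and 7.95 in the knockouts. The 3 high-fat knockouts were the lowest of all 12 embryos and overlapped no other group. Its diet difference was −0.47 ± 0.14 (unadjusted p = 0.0064, adjusted p = 0.401), and with array set as a block it was −0.46 ± 0.15 (adjusted p = 0.425), with −0.61 within set A and −0.31 within set B. The genotype difference was −0.33 ± 0.14 (unadjusted p = 0.0383, adjusted p = 1), but it was 0.01 within set A and −0.69 within set B. The other tested Pdk1 probe gave −0.62 ± 0.24 by diet and −0.49 ± 0.24 by genotype.

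Slc16a3 (MCT4) exports lactate. Slc16a3 read 8.18, 7.99 and 7.52 in control-diet wild-type embryos 1 to 3 and 8.16, 7.86 and 7.49 in the control-diet knockouts. In high-fat embryos Slc16a3 read 8.01, 8.18 and 8.11 in the wild types and 8.36, 7.98 and 7.37 in the knockouts. Embryo 3 was the lowest in 3 of the 4 groups, the high-fat wild types being the exception, and all groups overlapped. The diet difference, 0.13 ± 0.18, was the highest of the members (adjusted p = 0.717) and was −0.01 ± 0.14 with array set as a block. By genotype it was −0.13 ± 0.18.

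**Figure D2:**
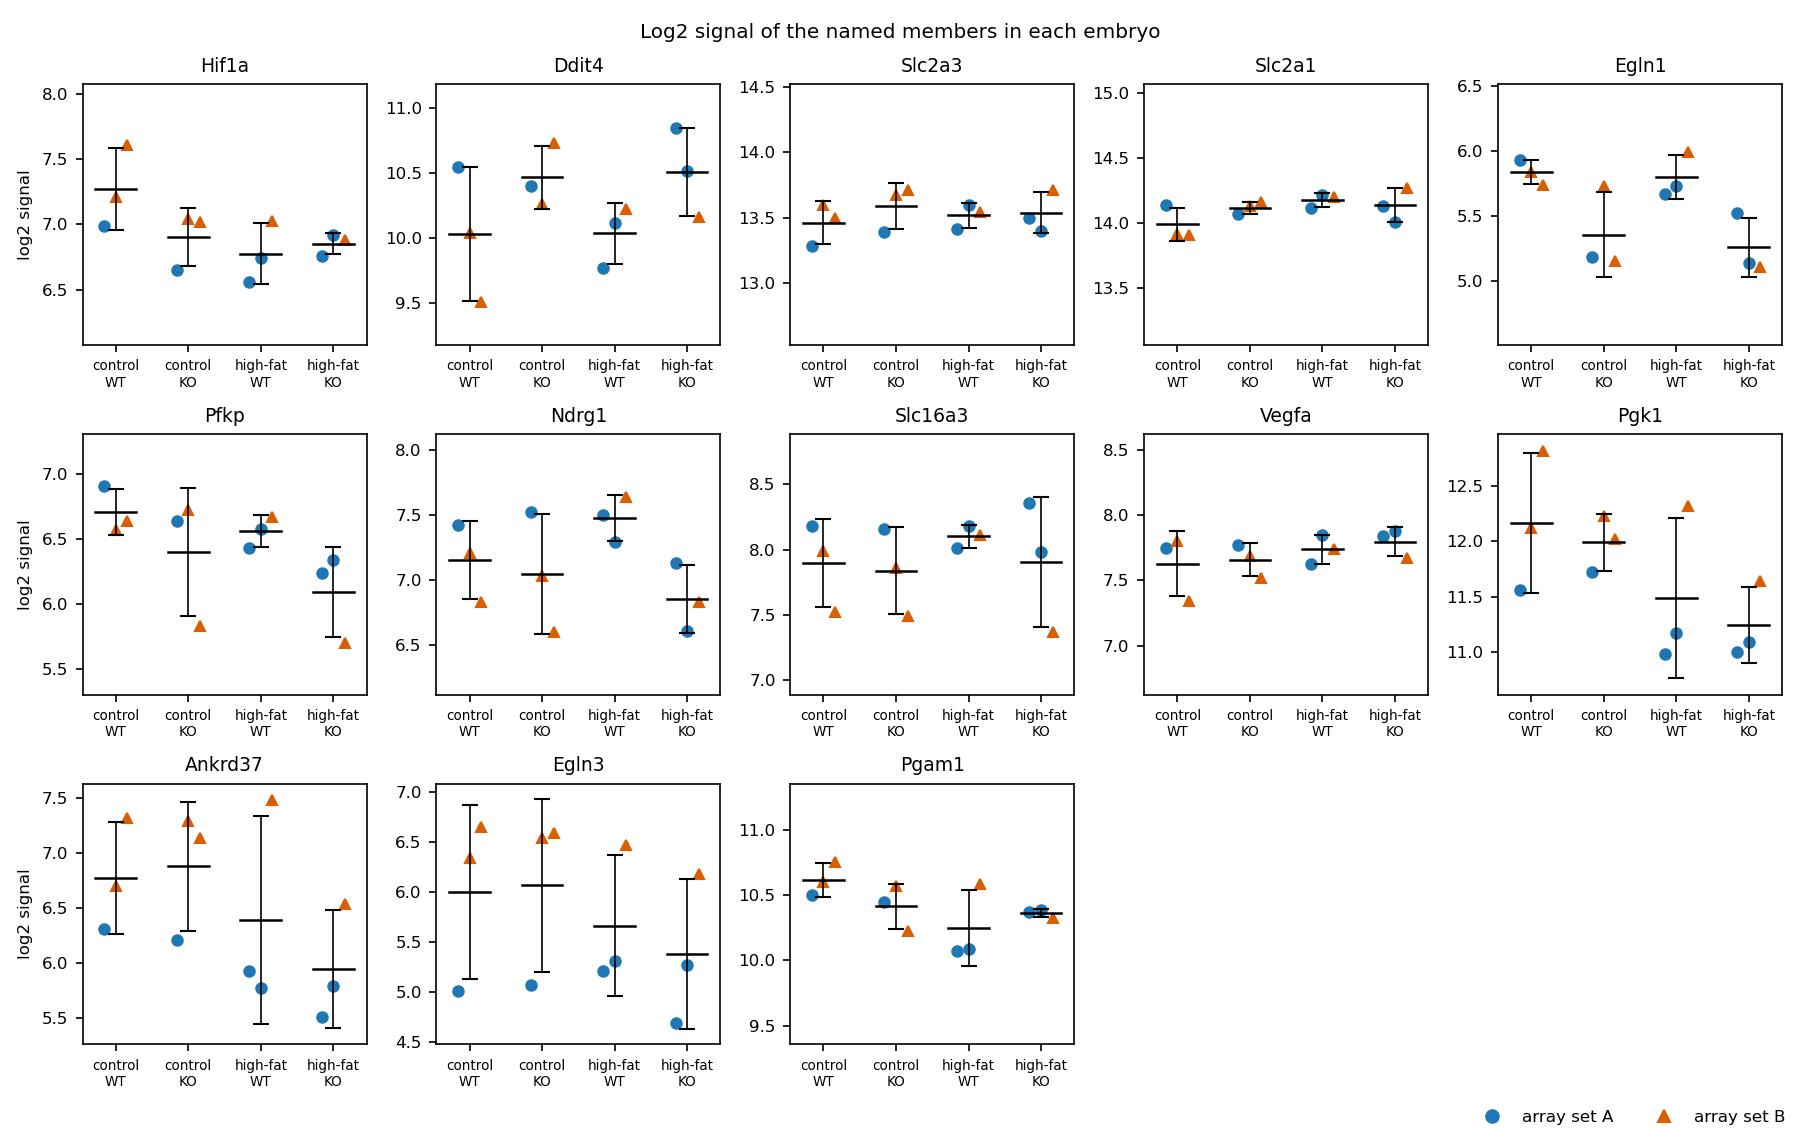
Log2 signal in each of the 12 embryos of the 13 members named by rank or, for Hif1a, by name, in the 4 groups (WT wild type, KO Cited2 -/-); circles are array set A, triangles set B, lines are means and bars are SD (n = 3). Egln1 is lower in each knockout group than in the wild types of its diet, and for Egln3 every triangle lies above every circle.

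The other targets had 7 tested genes, 5 of them below 0 by genotype with a median of −0.10, and 3 below 0 by diet with a median of 0.01. Ddit4 (REDD1), an inhibitor of mTORC1 induced by hypoxia and other stress, had the highest genotype difference of the members. Ddit4 read 10.54, 10.04 and 9.51 in control-diet wild-type embryos 1 to 3 and 10.40, 10.26 and 10.73 in the control-diet knockouts. In high-fat embryos Ddit4 read 9.77, 10.11 and 10.22 in the wild types and 10.84, 10.51 and 10.16 in the knockouts. The genotypes overlapped on both diets, since control-diet wild-type embryo 1 was above 2 of the 3 control-diet knockouts and high-fat wild-type embryo 3 was above high-fat knockout 3. The difference was 0.45 ± 0.18 (unadjusted p = 0.03, adjusted p = 1), with 0.30 within set A and 0.33 within set B. By diet it was 0.02 ± 0.18.

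Ankrd37, a gene of ankyrin repeats that HIF-1 is known to induce, had the second lowest diet difference. Ankrd37 read 6.31, 6.70 and 7.32 in control-diet wild-type embryos 1 to 3 and 6.21, 7.29 and 7.14 in the control-diet knockouts. In high-fat embryos Ankrd37 read 5.93, 5.77 and 7.48 in the wild types and 5.51, 5.79 and 6.54 in the knockouts. All 6 set A embryos lay at or below 6.31 and all 6 set B embryos at or above 6.54. The diet difference was −0.66 ± 0.33 (adjusted p = 0.433), and −0.30 ± 0.15 with array set as a block (adjusted p = 0.518). The interaction, −0.55 ± 0.65, was the lowest of the members (adjusted p = 1).

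Ndrg1, a stress-response gene induced by hypoxia, had the next lowest interaction. Ndrg1 read 7.42, 7.21 and 6.83 in control-diet wild-type embryos 1 to 3 and 7.52, 7.03 and 6.60 in the control-diet knockouts. In high-fat embryos Ndrg1 read 7.50, 7.29 and 7.64 in the wild types and 7.13, 6.61 and 6.83 in the knockouts. On the high-fat diet all 3 knockouts lay below all 3 wild types, and on the control diet the genotypes overlapped. The genotype difference was −0.62 ± 0.24 on the high-fat diet (unadjusted p = 0.022, adjusted p = 1) and −0.10 ± 0.24 on the control diet, and the interaction was −0.52 ± 0.33 (adjusted p = 1).

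Vegfa, the ligand that drives blood vessel growth, lay in all 4 groups within a range of 0.54. Vegfa read 7.75, 7.80 and 7.34 in control-diet wild-type embryos 1 to 3 and 7.77, 7.69 and 7.52 in the control-diet knockouts. In high-fat embryos Vegfa read 7.63, 7.85 and 7.74 in the wild types and 7.84, 7.88 and 7.67 in the knockouts. The groups overlapped throughout. Vegfa differed by 0.04 ± 0.11 between genotypes and by 0.12 ± 0.11 between diets (adjusted p = 0.574).

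Kdm3a, a histone H3K9 demethylase, was singled out for its unadjusted p by diet. Kdm3a read 10.44, 10.55 and 10.55 in control-diet wild-type embryos 1 to 3 and 10.62, 10.80 and 10.50 in the control-diet knockouts. In high-fat embryos Kdm3a read 10.08, 10.22 and 10.76 in the wild types and 10.07, 10.28 and 10.17 in the knockouts. The high-fat knockouts lay below all 6 control-diet embryos, and high-fat wild-type embryo 3 lay above 5 of them. The diet difference was −0.31 ± 0.12 (unadjusted p = 0.0246, adjusted p = 0.41) and the genotype difference −0.02 ± 0.12. Its other tested probes gave 0.02 ± 0.12 and −0.21 ± 0.10 by diet. P4ha1 and P4ha2, subunits of the collagen prolyl 4-hydroxylase, were at −0.10 ± 0.16 and −0.24 ± 0.12 by genotype and −0.26 ± 0.16 and 0.01 ± 0.12 by diet.

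The embryos that combined the genotype and the diet were lowest for several members. No member separated all 6 knockouts from all 6 wild types, beside 0.307% of all genes, or all 6 high-fat from all 6 control-diet embryos, beside 0.557%. On the high-fat diet, 7 of 25 members had all 3 knockouts below all 3 wild types (28%), beside 4.26% of all genes, and 0 had them above, beside 2.55%. The 7 were Pfkl, Pfkp, Tpi1, Pdk1, Egln1, Ndrg1 and P4ha2. Each count takes 1 probe per gene. At the other tested probes of Pfkl (0.04 ± 0.21), Pfkp (−0.37 ± 0.24) and Tpi1 (−0.08 ± 0.17 and −0.21 ± 0.24), the genotypes overlapped on this diet. They overlapped as well at the other tested probes of Pdk1, Egln1 and Ndrg1. The other P4ha2 probe had means of 8.62 ± 0.19 (SD) in the high-fat knockouts and 8.87 ± 0.21 in the high-fat wild types. On the control diet 1 member, Egln1, had the knockouts below (4%), beside 2.49%, and 0 had them above, beside 2.19%. Among knockouts, 6 members (Aldoa, Tpi1, Pgk1, Pdk1, P4ha1 and Kdm3a) had all 3 high-fat embryos below all 3 control-diet embryos (24%), beside 4.23%, and 0 had them above, beside 10.2%. The diets overlapped among knockouts at the other tested probes of Tpi1, Pgk1 and P4ha1. They also overlapped at a further Kdm3a probe (9.35 ± 0.21, SD, against 9.46 ± 0.26 on the control diet). The last Kdm3a probe had means of 7.89 ± 0.11 and 8.11 ± 0.13, and the other Pdk1 probe 4.98 ± 0.32 and 5.64 ± 0.31. Among wild types 0 members separated the diets, beside 2.84% of genes lower and 4.57% higher on the high-fat diet. The comparison of genotypes on the high-fat diet and that of diets in knockouts share the 3 high-fat knockouts, and each rests on 3 embryos a side. The median over 4 heart genes, none of them called, was also low in this group, at −0.74 against high-fat wild types and −1.04 against control-diet knockouts. Single heart genes ran from −2.13 to −0.01 and from −1.50 to −0.03. Nkx2-5, a heart factor, was at 0.03 by genotype averaged over diets and 0.01 by diet averaged over genotypes. The mean log2 signal of 3 Y-linked genes was 4.88, 4.84 and 4.68 in high-fat knockouts 1 to 3 and 5.34, 4.88 and 5.86 in the high-fat wild types. The part of heart tissue in the members' values was not tested. The interaction lay below 0 for 21 of 25 members (84%), with a median of −0.13, beside 54.7% of all genes and a median of −0.02. Within array set A 14 of 25 lay below 0 with a median of −0.10, beside 5979 of all 10764 genes and a median of −0.04. That count of members was near the share of all genes. Within set B 20 of 25 lay below 0 with a median of −0.34, beside 5155 of 10764 and a median of 0.02.

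At many but not all member probes, the array sets differed by more in size than the genotypes or the diets did. Of the 43 tested member probes, 5 (11.6%) were higher in all 6 set B embryos than in all 6 set A embryos. That share was near the 11.1% of all probes, and 1 member probe was lower, beside 5.57%. Higher by over 1 were 4 probes, beside 3.51% of all probes. Fitted beside the group means, set B minus set A was 1.74 ± 0.18 for one Vegfa probe, 1.35 ± 0.12 for Egln3, 1.13 ± 0.13 for one Ndrg1 probe, 1.06 ± 0.15 for Ankrd37 and 0.52 ± 0.09 for one Tpi1 probe. Pgk1 was at 0.79 ± 0.15 with overlap, and one Pfkl probe was at −0.31 ± 0.12. No label says what set the arrays apart, and this was not tested.

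**Figure D3:**
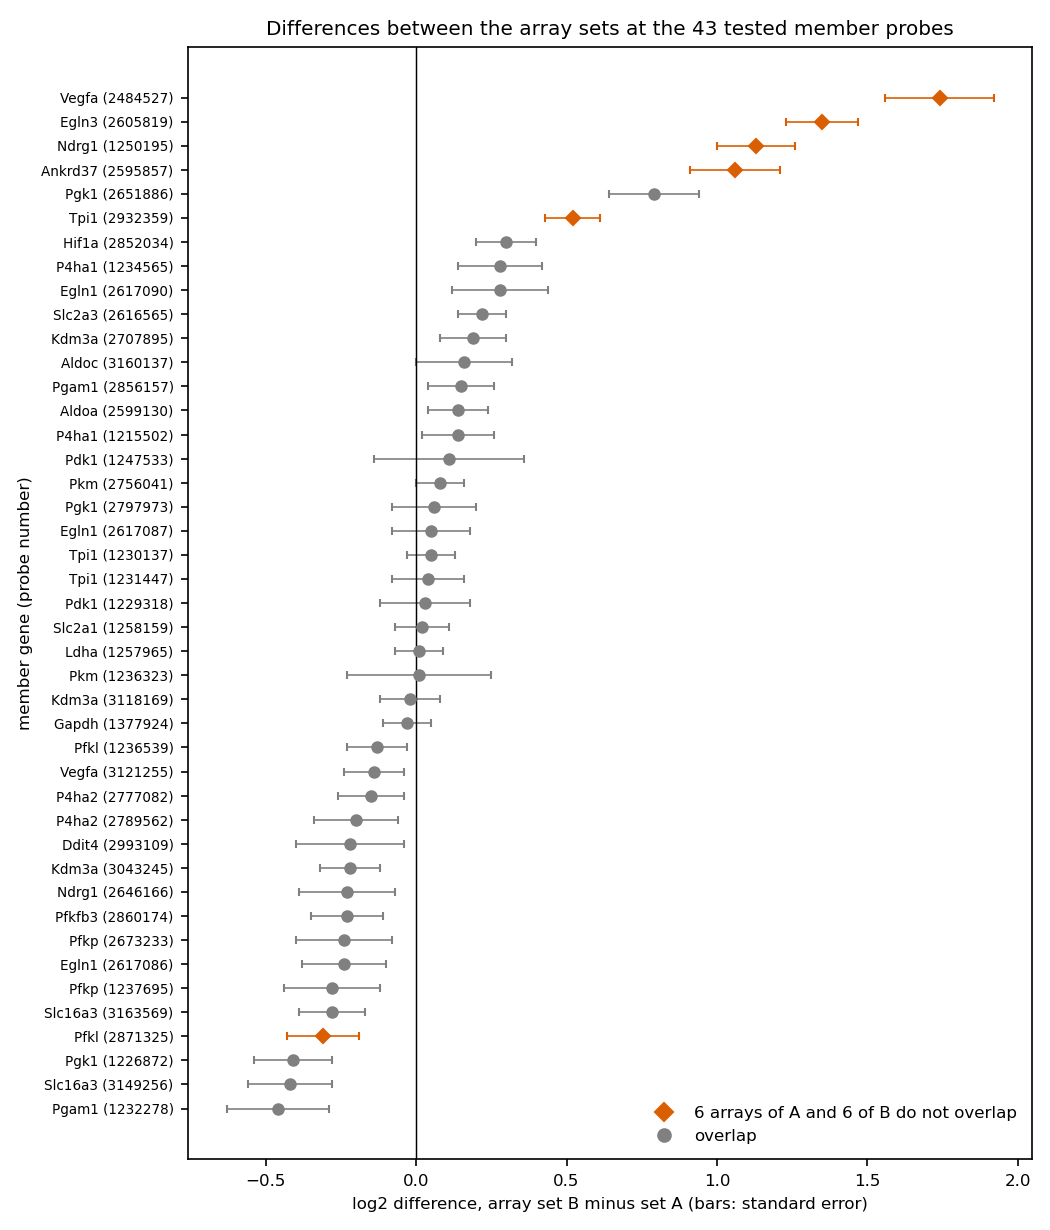
Set B minus set A difference in log2 signal for the 43 tested member probes, from the model with group means, with standard errors as bars and diamonds where the sets do not overlap. The Vegfa, Egln3, Ndrg1 and Ankrd37 probes above 1 stand apart from the other member probes.

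The set difference was not shared by all probes of a gene. The Vegfa probe with the higher mean signal was at −0.14 ± 0.10 between the sets, against 1.74 ± 0.18 at the second. That second probe read 5.31 to 6.41 on the set A arrays and 7.74 to 8.08 on the others, while the first read 7.63 to 7.88 and 7.34 to 7.80. For Ndrg1 the first probe was at −0.23 ± 0.16 and the second at 1.13 ± 0.13. By diet the second Vegfa probe gave −0.81 ± 0.51 (adjusted p = 0.48) against 0.12 ± 0.11 at the first, and −0.23 ± 0.18 with array set as a block. The transcripts matched by each probe were not analysed here. Of the 14 members with several tested probes, all probes had the same sign for 11 by genotype and for 7 by diet.

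**Figure D4:**
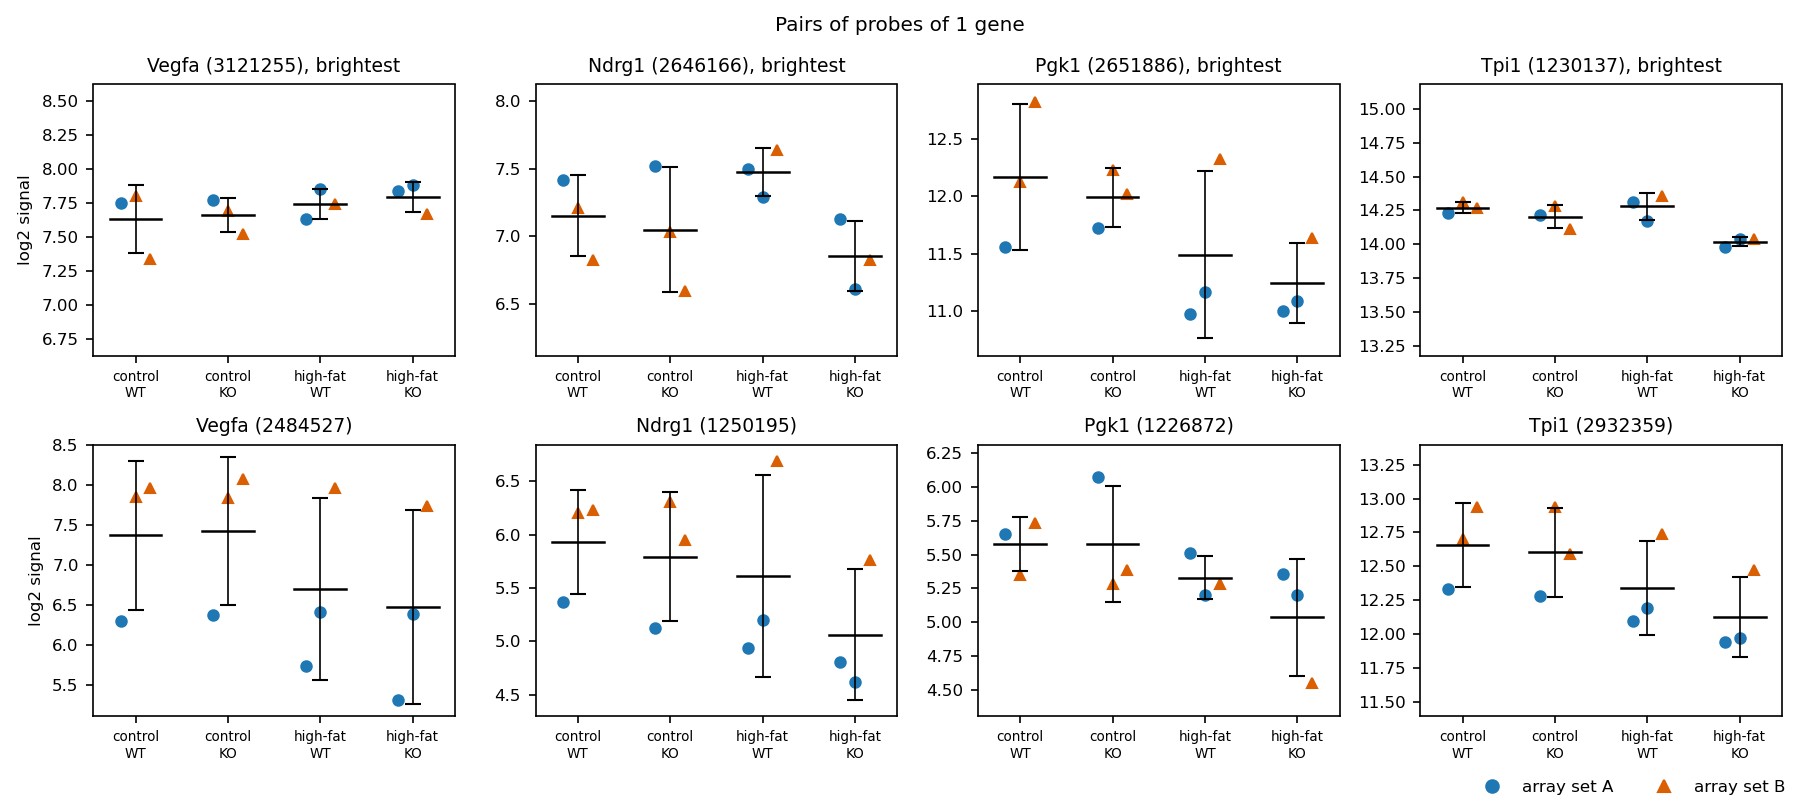
Log2 signal per embryo of Vegfa, Ndrg1, Pgk1 and Tpi1 at the probe with the highest mean signal (upper panels) and at another probe of the same gene (lower panels); circles are array set A, triangles set B, lines are means and bars are SD (n = 3). The lower Vegfa, Ndrg1 and Tpi1 panels split by array set, and the upper panels of these genes do not.

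Other genes of the same pathways were read from 3 further lists. None of their genes was called by genotype or by diet. Among other glycolysis and pyruvate genes, 23 of 37 were tested, 10 lay below 0 by genotype with a median of 0.01, and 7 lay below 0 by diet with a median of 0.08. Their highest genotype differences were 0.68 for Slc2a2 (GLUT2) and 0.23 for Fbp1 (a gluconeogenic phosphatase), and their lowest −0.27 for Pgam2 and −0.26 for Slc2a10. By diet, Fbp2 was at 0.48 and Slc2a8 at 0.31, and Hkdc1 at −0.32 and Pdk3 at −0.22. With array set as a block Hkdc1 was at 0.06, on the other side of 0, and the other values were 0.54 for Fbp2, 0.16 for Slc2a8 and −0.19 for Pdk3. Of the HIF pathway regulators, 13 of 19 were tested, with 5 below 0 and a median of 0.02 by genotype, and 7 below 0 and a median of −0.07 by diet. Hif1an, the asparaginyl hydroxylase that blocks the HIF-1α coactivator site, was at 0.15 by genotype and 0.27 by diet, and Siah2, a ubiquitin ligase that acts on the prolyl hydroxylases, at −0.24 and −0.48. Arnt, the partner of HIF-1α, was at 0.32 by diet. Of other hypoxia targets, 40 of 49 were tested, with 27 below 0 and a median of −0.07 by genotype, and 21 below 0 and a median of −0.04 by diet. Their highest differences were 0.27 for Zfp395 and 0.09 for Narf by genotype, and 0.27 for Zfp395 and 0.24 for Cox4i2 (a subunit of cytochrome oxidase) by diet. Stc1 (stanniocalcin) and Ets1 were the lowest by genotype, both at −0.42, and Stc1 at −0.77 and Edn1 (endothelin) at −0.69 were the lowest by diet. With array set as a block, the diet differences were 0.34 for Zfp395, 0.08 for Cox4i2, −0.37 for Stc1 and −0.77 for Edn1. On the high-fat diet 29 of these 40 targets lay below 0 by genotype with a median of −0.17, beside −0.19 for the 25 members.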

How the data were processed

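Transcripts were read in 12 embryos on 1-colour Illumina mouse arrays. The deposited signals are bead intensities on a linear scale, exported by the authors from BeadStudio 3.2.6, per the submitters' processing notes. Detection p-values were deposited beside them, and the deposited single-array tables hold the detection score as a fraction, 1 minus that p-value, with bead counts per the file headers. The authors' deposited processed table holds log2 values, with a normalization not given in the sources used.

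Signals were corrected and quantile-normalized with neqc of limma 3.58.1 in R 4.3.3 (offset 16, background from detection p-values). Probes with a detection p under 0.01 on at least 3 arrays were tested. One model with 4 group means, fitted by lmFit and eBayes, gave 7 comparisons, with Benjamini-Hochberg adjustment over 19595 probes and a threshold of 0.05. Errors of differences are standard errors of this model. The fits were tested on simulated data. The number of arrays limits the precision.

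The members and lists were chosen with earlier results of these data known. Every member is accounted for. Values per embryo are given for Hif1a, for the 3 highest and 3 lowest members by genotype and by diet and the 2 highest and 2 lowest in the interaction, and for Tpi1, Pdk1 and Kdm3a, picked after their values were seen. From other lists the 2 highest and 2 lowest per effect were eligible for naming. Promoters are from RefSeq, build GRCm38.p6. Each title number was shared by a knockout and a wild-type embryo of the same diet. Labels do not say what the title numbers mark.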

Additional observations from a re-analysis of the deposited data

How the results depend on the processing

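No member was called in any of the 7 comparisons under 28 of 29 alternatives, among them other background corrections and scalings, the authors' own values, no filter, array set as a block or within sets, and each embryo left out in turn. The exception was array weights in limma, which ran from 0.394 to 7.43: 9 members were called by diet (Hif1a, Aldoa, Pgk1, Pgam1, Pdk1, Egln3, Ankrd37, P4ha1 and Kdm3a), 2 by genotype on the high-fat diet (Egln1 and Ndrg1) and 3 by diet in wild types (Hif1a, Pgk1 and Pgam1). Beside them, of all 19595 probes these weights called 6128 by diet, 1325 by genotype on the high-fat diet and 1466 by diet in wild types. Weights estimated anew beside array set as a block, an alternative chosen after seeing the data whose estimate limma warned had not converged, gave 0 members. The genotype median of −0.11 was −0.04 within array set A and −0.23 within set B, beside −0.02 and 0.02 over all genes. It was −0.02 with Y-linked signal as a covariate and −0.15 to −0.03 with 1 embryo left out, the last without high-fat wild-type embryo 3. The diet median of −0.06 was 0.04 when arrays were scaled to equal medians, −0.17 with the median over a gene's probes, and −0.11 to −0.05 with 1 embryo left out. The cause was not tested. Deviations of embryos with the same replicate number correlated by over 0.1 in 13 of 18 pairs: all 6 pairs of number 1, whose embryos all lie in set A (0.271 to 0.682), all 6 of number 3, all in set B (0.272 to 0.588), and 1 of 6 of number 2, split over the sets (−0.264 to 0.202). The numbers were not taken as pairs, since not every pair was over 0.1 and no label says what they mark. By title number 2 of 6 pairs were over 0.1 (−0.525 to 0.367). The replicate block called 0 members, with a lowest adjusted p of 0.466 by genotype and 0.0518 by diet, and over all probes 24 by genotype and 338 by diet. Without it these were 14 and 0. The title number as a block gave 7 and 0. Over all probes the genotype count of 14 was 27 with array set as a block, 120 with array weights, 30 with weights and the set block, and 4 among probes detected on all arrays, within set A and within set B. Signals of Pfkfb3, Egln1 and Egln3, detected on 4 to 9 arrays, lie near background, which limits their differences.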
